A study of Homo sapiens with 12 samples.

Results

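The 10 genes XBP1, HSPA5, HSP90B1, DNAJB9, EDEM1, HERPUD1, SDF2L1, ERN1, ATF6 and PDIA4, which sense and answer protein misfolding in the endoplasmic reticulum (ER), were followed across 4 treatments of ML-2 cells. They are 10 of 19775 genes with a usable probe set, and their members were all 22 probe sets that the platform annotation assigns to exactly 1 of these symbols, of 41091 such probe sets in all. A further 2 probe sets that list HSP90B1 together with a microRNA gene were set aside. ML-2 is an established human acute myeloid leukaemia line and the only line studied. The groups were cells given 2 µM SGI-110 for 33 h, cells given 5 µM ASTX660 for 9 h, cells given 2 µM SGI-110 for 24 h before 5 µM ASTX660 joined it for 9 h (the combination), and solvent-treated cells. Each group held 3 arrays from 3 independent experiments, and the sample titles number them 2, 9 and 13, read here as experiment numbers without order. SGI-110, or guadecitabine, is a prodrug of the DNA hypomethylating agent decitabine. ASTX660 is an antagonist of inhibitor of apoptosis proteins.

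As background, unfolded protein in the ER draws the chaperone BiP, encoded by HSPA5, away from the membrane sensors IRE1, ATF6 and PERK. IRE1, encoded by ERN1, then splices the XBP1 transcript so that it encodes an active transcription factor, while ATF6 is cut in the Golgi and its released part enters the nucleus. Both factors raise genes for ER chaperones and for ER-associated degradation, which sends misfolded proteins to the proteasome. The array measures transcript level only: it does not separate spliced from unspliced XBP1 and reads neither sensor phosphorylation nor ATF6 cleavage.

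Promoters are shown because ATF6 and XBP1 are known to act through defined elements. The ER stress response element, ERSE, is CCAAT, then any 9 bases, then CCACG, and ERSE-II is ATTGG, then any 1 base, then CCACG. Both strands of the 250 bases before each RefSeq start were searched, a search added after the values were seen. ERSE was in 0.074% of 35116 promoters and in promoters of XBP1, HSPA5 and HSP90B1, the last with 2 copies. XBP1 has a further RefSeq start, not shown, whose promoter carried neither ERSE nor ERSE-II. ERSE-II was in 0.0513% of promoters and in those of HERPUD1 and SDF2L1. These elements were defined from promoters of genes of this kind, so their presence is not an independent observation. DNAJB9, EDEM1, ERN1, ATF6 and PDIA4 had neither in this window, and TGACGTGG, the core of another element of the response, was in 0.612% of promoters and in 0 of the members. Sequences are RefSeq's for GRCh38.p14, 5′ to 3′ on the strand of the gene, with the fixed letters of ERSE or ERSE-II in capitals and the start just after the last base.
XBP1, chr22:28800570-28800819, minus strand: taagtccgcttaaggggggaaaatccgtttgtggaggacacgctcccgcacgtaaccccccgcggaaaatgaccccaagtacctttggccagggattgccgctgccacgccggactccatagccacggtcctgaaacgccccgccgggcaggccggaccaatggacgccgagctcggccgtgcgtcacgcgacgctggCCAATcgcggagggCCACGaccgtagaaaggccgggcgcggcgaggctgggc
HSPA5, chr9:125241344-125241593, minus strand: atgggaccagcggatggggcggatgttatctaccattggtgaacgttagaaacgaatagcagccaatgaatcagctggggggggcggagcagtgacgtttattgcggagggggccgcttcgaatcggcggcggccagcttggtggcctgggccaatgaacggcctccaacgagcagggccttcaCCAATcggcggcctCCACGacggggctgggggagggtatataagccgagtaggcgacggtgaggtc
HSP90B1, chr12:103930160-103930409, plus strand: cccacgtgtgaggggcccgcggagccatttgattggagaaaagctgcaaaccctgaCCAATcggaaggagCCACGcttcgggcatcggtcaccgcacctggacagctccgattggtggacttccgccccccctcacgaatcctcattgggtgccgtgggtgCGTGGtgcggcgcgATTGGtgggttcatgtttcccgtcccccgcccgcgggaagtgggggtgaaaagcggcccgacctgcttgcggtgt
HERPUD1, chr16:56931892-56932141, plus strand: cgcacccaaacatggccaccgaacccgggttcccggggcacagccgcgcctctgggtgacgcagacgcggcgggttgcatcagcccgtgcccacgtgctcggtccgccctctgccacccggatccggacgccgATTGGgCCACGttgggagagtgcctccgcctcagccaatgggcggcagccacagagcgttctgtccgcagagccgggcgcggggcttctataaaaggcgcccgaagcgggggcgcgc
SDF2L1, chr22:21642052-21642301, plus strand: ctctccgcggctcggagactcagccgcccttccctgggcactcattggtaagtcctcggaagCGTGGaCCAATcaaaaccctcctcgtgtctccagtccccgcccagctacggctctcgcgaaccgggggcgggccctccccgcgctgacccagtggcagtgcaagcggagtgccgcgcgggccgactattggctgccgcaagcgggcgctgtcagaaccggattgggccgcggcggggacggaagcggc

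The ERSE began 52 bases before the XBP1 start shown and 66 before that of HSPA5. In HSP90B1 the copies began 194 and 89 bases before the start, the nearer one on the opposite strand. ERSE-II began 117 bases before the start of HERPUD1 and, on the opposite strand, 188 before that of SDF2L1.

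Values are RMA log2 intensities, so a level of one probe set cannot be set against that of another. Of the 22 probe sets 19 exceeded the array median on at least 3 arrays and were tested, which covered all 10 genes. The other 3, of XBP1, HERPUD1 and ERN1, did so on at most 1 array. Each gene was read from its brightest probe set. A call is a limma adjusted p under 0.05 (Benjamini-Hochberg over 23660 probe sets). Because RNA came from whole cultures, fewer cells expressing a gene and less RNA per cell cannot be told apart.

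**Figure D1:**
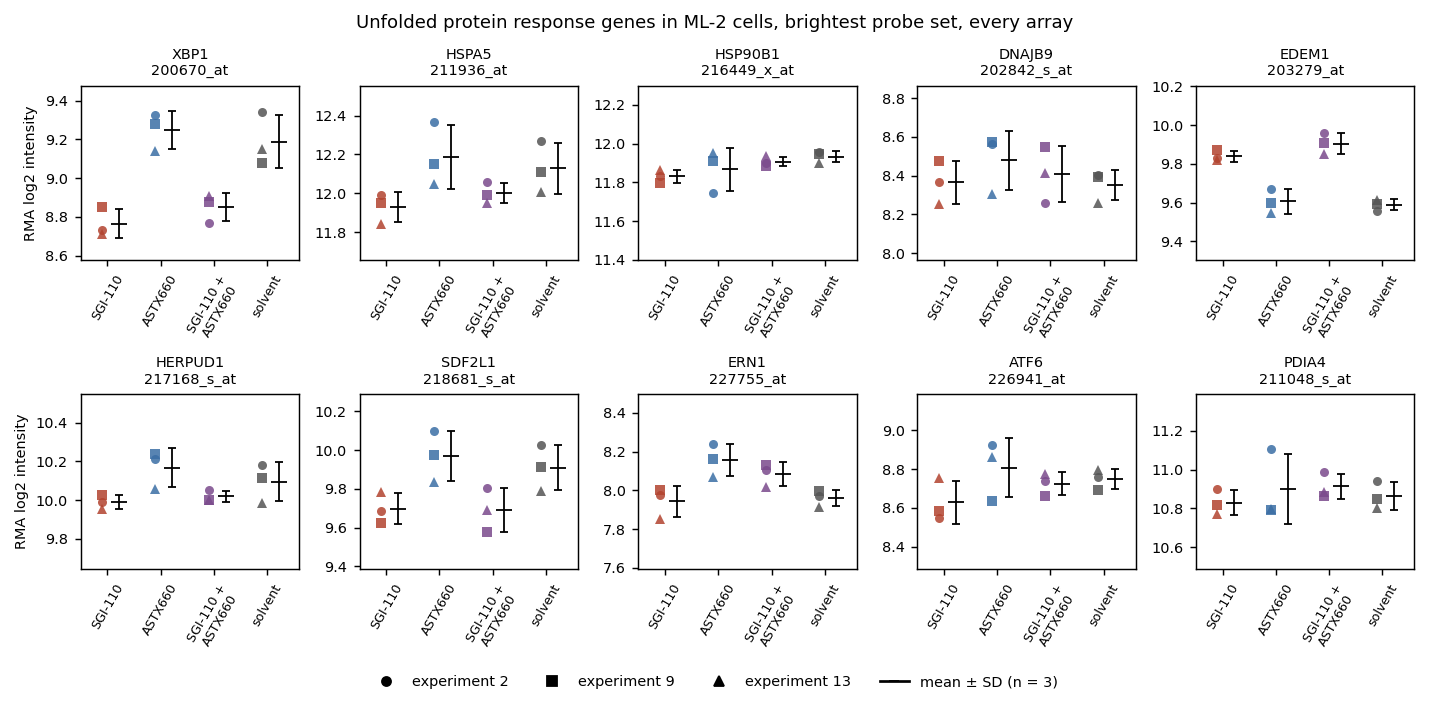
RMA log2 intensity (vertical axis) of the brightest probe set of each of the 10 genes in the 4 groups, with 1 point per array shaped by experiment and mean ± SD (n = 3). XBP1 is lower and EDEM1 higher on all 6 arrays with SGI-110 than on all 6 without it.

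SGI-110 alone lowered XBP1 and raised EDEM1. XBP1, the transcription factor gene of the IRE1 arm, read 8.73, 8.85 and 8.71 after SGI-110, against 9.34, 9.08 and 9.15 after solvent, in experiments 2, 9 and 13. The groups did not overlap, and the difference within experiments was −0.61, −0.23 and −0.44. The fitted change was −0.42 log2 units (SE 0.0774, 95% interval −0.59 to −0.26), or −25.4% (limma adjusted p = 0.00308). EDEM1, which takes misfolded glycoproteins out of the folding cycle for degradation, read 9.83, 9.87 and 9.82 after SGI-110, against 9.56, 9.60 and 9.62 after solvent. These groups did not overlap either, with rises of 0.27, 0.28 and 0.20 within experiments. The fitted rise was 0.25 (SE 0.0516, interval 0.14 to 0.36), or 18.9% (adjusted p = 0.00674).

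With SGI-110 alone 1 of 10 genes rose, against 8.42% of all 12689 genes, and 1 fell, against 5.18%. Together 20% of the members were called, against 13.6% of all genes, and 8 did not pass. The median change of the 10 was −0.10, against 0.00 for all genes. Groups did not overlap for 5 of the 10, against 36.2% of all genes. Among probe sets 3 of 19 were called, against 11.2%. With experiment number as a block HSPA5 and SDF2L1 passed as well, which made 4 genes, against 23.6% of all genes.

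None of the chaperone genes among the members passed with SGI-110 alone without the block, and their differences from solvent ran from −0.21 for SDF2L1 to 0.02 for DNAJB9, a cochaperone of BiP. HSPA5 read 11.99, 11.95 and 11.84 after SGI-110, against 12.27, 12.11 and 12.01 after solvent. The groups did not overlap, and the difference of −0.20 (interval −0.36 to −0.04) did not pass in limma without the block (adjusted p = 0.115) and passed with it (0.000935). SDF2L1, a cofactor of BiP, read 9.69, 9.62 and 9.78 after SGI-110, against 10.03, 9.91 and 9.79 after solvent. Its groups did not overlap but were only 0.01 apart in experiment 13, with a difference of −0.21 (adjusted p = 0.117, blocked 0.0237). HSP90B1, encoding the ER chaperone GRP94, read 11.84, 11.80 and 11.86 after SGI-110, against 11.95, 11.95 and 11.90 after solvent (−0.10, adjusted p = 0.202). PDIA4, a disulfide isomerase, differed by −0.03 (interval −0.19 to 0.13, adjusted p = 0.842).

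ATF6 differed by −0.12 with SGI-110 (interval −0.29 to 0.05, limma adjusted p = 0.409). HERPUD1, a membrane protein of the degradation complex, read 9.99, 10.03 and 9.95 after SGI-110, against 10.18, 10.12 and 9.98 after solvent (−0.10, adjusted p = 0.329). DNAJB9 differed by 0.02 (interval −0.18 to 0.22, adjusted p = 0.949).

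The ERN1 probe sets disagreed. On the brighter one ERN1 read 7.974, 8.003 and 7.852 after SGI-110, against 7.972, 7.997 and 7.914 after solvent (−0.02, limma adjusted p = 0.917). On the dimmer one it read 6.36, 6.23 and 6.27 after SGI-110, against 6.66, 6.80 and 6.66 after solvent. Those groups did not overlap, and the change of −0.42 (SE 0.0834) passed (adjusted p = 0.00545). The sources used here do not say where the probe sets lie in the transcript, so no single direction is given for ERN1.

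**Figure D2:**
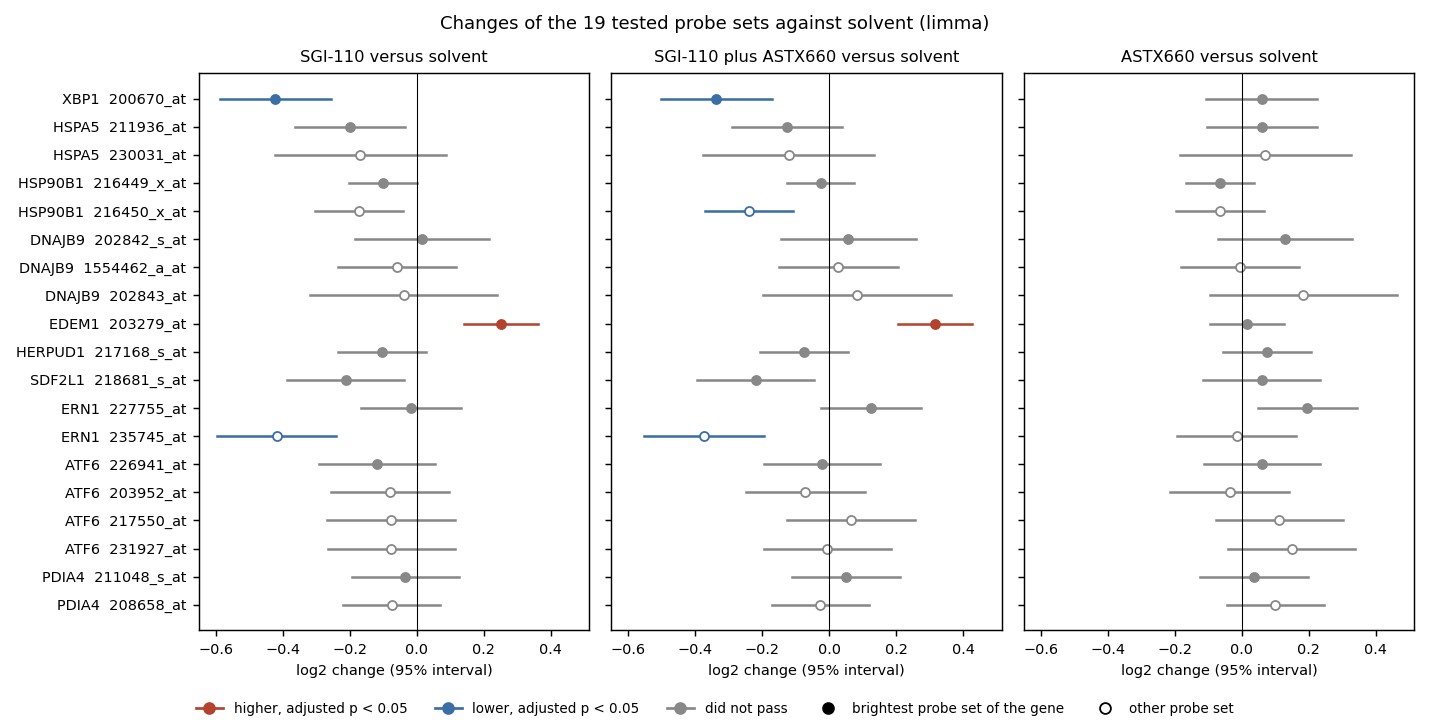
Log2 change with 95% interval (horizontal axis) of the 19 tested probe sets for SGI-110, SGI-110 plus ASTX660 and ASTX660, each against solvent, with filled points for the brightest probe set of a gene. XBP1 is at −0.42 and −0.34 and EDEM1 at 0.25 and 0.32 in the panels with SGI-110.

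The combination gave calls on XBP1 and EDEM1 against the same solvent arrays. XBP1 read 8.77, 8.88 and 8.91 after the combination, against 9.34, 9.08 and 9.15 after solvent. The groups did not overlap, and the change was −0.34 (SE 0.0774, interval −0.50 to −0.17), or −20.9% (limma adjusted p = 0.0103). Without the solvent array of experiment 2 it was −0.26 and did not pass (adjusted p = 0.0533). EDEM1 read 9.96, 9.91 and 9.85 after the combination, against 9.56, 9.60 and 9.62 after solvent, a rise of 0.32 (SE 0.0516), or 24.4% (adjusted p = 0.00143).

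With the combination 1 of 10 genes rose, against 11.1% of all genes, and 1 fell, against 5.15%, so that 20% were called, against 16.2%. Groups did not overlap for 3 of 10, against 38.4% of all genes. HSPA5 read 12.06, 11.99 and 11.95 after the combination, against 12.27, 12.11 and 12.01 after solvent (−0.13, limma adjusted p = 0.294, blocked 0.0202). SDF2L1 differed by −0.22 (adjusted p = 0.0899, blocked 0.0175). The blocked fit thus called 4 genes, against 27% of all genes. The brighter ERN1 probe set read 8.107, 8.133 and 8.015 after the combination, against 7.972, 7.997 and 7.914 after solvent, with no overlap and differences of 0.14, 0.14 and 0.10 within experiments (0.12, adjusted p = 0.26). On dimmer probe sets, ERN1 changed in the opposite direction, by −0.38 (adjusted p = 0.00879) and HSP90B1 by −0.24 (adjusted p = 0.0176). The HSP90B1 call was lost without the experiment 2 array of the combination (adjusted p = 0.0643) or of solvent (0.0861).

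Against ASTX660, the combination lowered XBP1 and SDF2L1 and raised EDEM1. XBP1 read 8.77, 8.88 and 8.91 after the combination, against 9.32, 9.28 and 9.14 after ASTX660 (−0.40, limma adjusted p = 0.00472). EDEM1 read 9.96, 9.91 and 9.85 after the combination, against 9.67, 9.60 and 9.55 after ASTX660 (0.30, adjusted p = 0.00215). SDF2L1 read 9.81, 9.58 and 9.69 after the combination, against 10.10, 9.97 and 9.84 after ASTX660 (−0.28, adjusted p = 0.0368). The SDF2L1 call was lost without the experiment 2 array of SGI-110 (adjusted p = 0.0512), of ASTX660 (0.117), the experiment 9 array of ASTX660 (0.0903) or of the combination (0.12), or the experiment 13 array of the combination (0.0906). Of 10 genes 1 rose, against 7.77% of all genes, and 2 fell, against 7.06%, or 14.8% in either direction. Groups did not overlap for 4 of 10, against 29.4%. The combination arrays are those compared with solvent above.

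ASTX660 alone left no member called. limma called 0 of 10 genes and 0% of all genes, with 1 member and 6.69% of all genes at an unadjusted p under 0.05, and the blocked fit called 0 members and 0.00788% of all genes. XBP1 read 9.32, 9.28 and 9.14 after ASTX660, against 9.34, 9.08 and 9.15 after solvent (0.06, interval −0.11 to 0.23). Differences of the 10 genes ran from −0.07 to 0.20, with 95% intervals between −0.17 and 0.34. Groups did not overlap for 1 of 10, against 12.3% of all genes. That gene was ERN1, whose brighter probe set read 8.24, 8.16 and 8.07 after ASTX660, against 7.972, 7.997 and 7.914 after solvent (0.20, interval 0.05 to 0.34, adjusted p = 0.674).

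On that probe set all 6 arrays with ASTX660 lay above all 6 without it, the nearest being 8.015 with and 8.003 without. ERN1 was 1 of 10 members with such an order, against 0.276% of all genes. The pooled effect of 0.17 (SE 0.0489) did not pass in limma (adjusted p = 0.562), and the dimmer probe set stood at 0.01. In the pooled ASTX660 effect 0 members and 0% of all genes passed, with 1 member and 7.97% of all genes at an unadjusted p under 0.05.

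Adding ASTX660 after SGI-110 gave 0 limma calls among the members and 0% among all genes (0 members and 2.73% of all genes at an unadjusted p under 0.05). Differences between the combination and SGI-110 ran from −0.01 to 0.14, with intervals between −0.18 and 0.29. The interaction, or departure of the combination from additivity on the log2 scale, also called 0 members and 0% of all genes (0 members and 1.48% unadjusted), with intervals between −0.37 and 0.28.

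Pooling the 6 arrays with SGI-110 against the 6 without reuses the arrays above. Here 1 of 10 genes rose, against 15.1% of all genes, and 4 fell, against 13.4%, so that 5 were called, against 28.5% in either direction. XBP1 changed by −0.41 (SE 0.0547, −24.8%, limma adjusted p = 0.000109) and SDF2L1 by −0.25 (SE 0.0576, −15.7%, adjusted p = 0.00613). HSPA5 changed by −0.19 (SE 0.0541, −12.6%, adjusted p = 0.0168) and HERPUD1 by −0.13 (SE 0.0432, −8.41%, adjusted p = 0.0442). EDEM1 rose by 0.27 (SE 0.0365, adjusted p = 0.000107). The HERPUD1 call was lost without any of 10 of the 12 arrays (adjusted p between 0.0553 and 0.117). Arrays did not overlap for XBP1 and EDEM1, 2 of 10 genes, against 16.4% of all genes. Among probe sets 7 of 19 were called, against 25.8%, including the dimmer ones of HSP90B1 (−0.17) and ERN1 (−0.39). The dimmer one of HSPA5 was not called. With SGI-110 alone it differed from solvent by −0.39, −0.01 and −0.11 in experiments 2, 9 and 13.

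XBP1, HSPA5, HERPUD1 and SDF2L1, called lower on their brightest probe sets in the pooled SGI-110 effect, carry ERSE or ERSE-II. HSP90B1 carries ERSE too, and its brightest probe set stood at −0.03 (limma adjusted p = 0.545) while its dimmer one was called lower. EDEM1 carries neither in the window. Outside the members 13 tested genes carried ERSE, of which 1 rose and 1 fell (15.4%, median 0.05). Among 10211 tested genes without ERSE, the members without it included, 29.1% were called. Genes with ERSE-II outside the members were not compared.

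Part of the spread within groups followed the experiment. On its brightest probe set HSPA5 was highest in experiment 2 and lowest in experiment 13 in all 4 groups. On its dimmer one experiment 2 was lowest after SGI-110 (7.92, against 8.04 in experiment 9 and 7.95 in experiment 13). PDIA4 was also highest in experiment 2 in all 4 groups, at 10.90 after SGI-110, 11.11 after ASTX660, 10.99 after the combination and 10.94 after solvent. That order held for these 2 of 10 genes, against 3.7% of all genes. An F test of the experiment term in the blocked limma fit, chosen after the values were seen, passed for HSPA5 (adjusted p = 0.00097) and PDIA4 (adjusted p = 0.0109), against 12.9% of all genes. XBP1 (adjusted p = 0.775) and EDEM1 (0.719) did not pass this F test, nor did the dimmer probe sets of HSPA5 (0.116) and PDIA4 (0.0853).

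**Figure D3:**
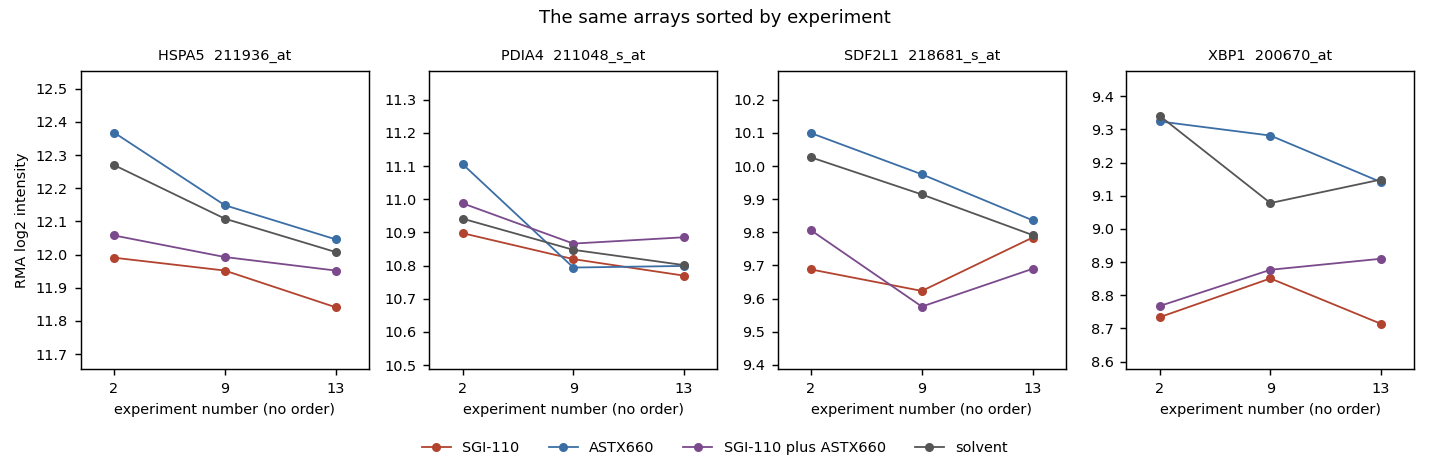
RMA log2 intensity (vertical axis) of the brightest probe set of HSPA5, PDIA4, SDF2L1 and XBP1 by experiment number (horizontal axis, without order), with 1 line per treatment. HSPA5 and PDIA4 are highest in experiment 2 in all 4 treatments, and XBP1 is lower with SGI-110 than without it in every experiment.

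Other pathway genes were read from 4 lists in the pooled SGI-110 effect. Of 19 tested ER chaperone and folding genes 1 rose, 1 fell and 17 did not pass, 10.5% against 28.5% of all genes, with a median of −0.02. HYOU1, a large chaperone that works with BiP, read 8.71, 8.60 and 8.66 after SGI-110 and 8.79, 8.68 and 8.79 after the combination, against 9.19, 9.01 and 9.02 after ASTX660 and 8.96, 8.92 and 8.95 after solvent. Those sets did not overlap, and the change was −0.30 (SE 0.0452, limma adjusted p = 0.000255). FKBP2, an ER prolyl isomerase, rose by 0.18 (adjusted p = 0.00664). PPIB (−0.05) and MANF (−0.09) did not pass in this fit, which has no block.

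Of 18 tested genes of ER-associated degradation 4 rose, 0 fell and 14 did not pass, 22.2% against 28.5% of all genes, with a median of 0.07. NPLOC4 rose by 0.34 (limma adjusted p = 0.00046), UFD1 by 0.13 (0.00676) and VCP by 0.10 (0.0365). Their products form the complex that extracts ubiquitinated proteins from the ER membrane. EDEM2, a relative of EDEM1, rose by 0.24 (adjusted p = 0.00664). NPLOC4 read 9.61, 9.52 and 9.83 after SGI-110 and 9.60, 9.47 and 9.72 after the combination, against 9.34, 9.30 and 9.31 after ASTX660 and 9.27, 9.26 and 9.23 after solvent, with no overlap.

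Of 22 tested genes of ER translocation and vesicle transport 7 rose, 2 fell and 13 did not pass, 40.9% against 28.5% of all genes, with a median of 0.04. ARFGAP3, a regulator of vesicle coats, rose by 0.40 (limma adjusted p = 4.98e-05). SEC11C, a signal peptidase subunit, rose by 0.28 (0.000152), SEC31A, a coat protein of vesicles leaving the ER, by 0.23 (0.00147) and SRP54, of the signal recognition particle, by 0.19 (0.00437). The 2 that fell were SRPRB, by −0.15 (0.0203), and SEC63, by −0.16 (0.0257), named after their values were seen.

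Of 24 tested genes of the sensors, their cleavage and the PERK arm 4 rose, 6 fell and 14 did not pass, 41.7% against 28.5% of all genes, with a median of −0.06. ATF4, the transcription factor of the PERK arm, lay between 11.93 and 12.10 on the 6 arrays with SGI-110, against 12.38 to 12.50 on the 6 without. Its change was −0.41 (SE 0.0309, limma adjusted p = 7.8e-07). ASNS, an asparagine synthetase and ATF4 target, changed by −0.53 (adjusted p = 0.00125). Other called genes of this list went both ways, with TRIB3 at −0.53 (0.00651) and PPP1R15A at 0.195 (0.0413), both named after their values were seen. BAX, which permeabilises mitochondria and is also a p53 target, rose by 0.79 (adjusted p = 3.76e-07), and TXNIP, an inhibitor of thioredoxin, by 0.70 (1.99e-06). EIF2AK3, encoding PERK, stood at −0.11 (adjusted p = 0.176). DDIT3, the stress-induced factor CHOP, named after its value was seen, stood at −0.07 (0.427).

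In the pooled ASTX660 effect 0 genes of the 4 lists passed in limma. The values were 0.11 for HYOU1, 0.16 for ERO1B, 0.11 for DERL2, 0.09 for SELENOS, 0.15 for SEC31A, 0.12 for ARFGAP3, 0.13 for EIF2AK3 and 0.13 for NFYA. Their adjusted p lay between 0.562 and 0.636.

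**Figure D4:**
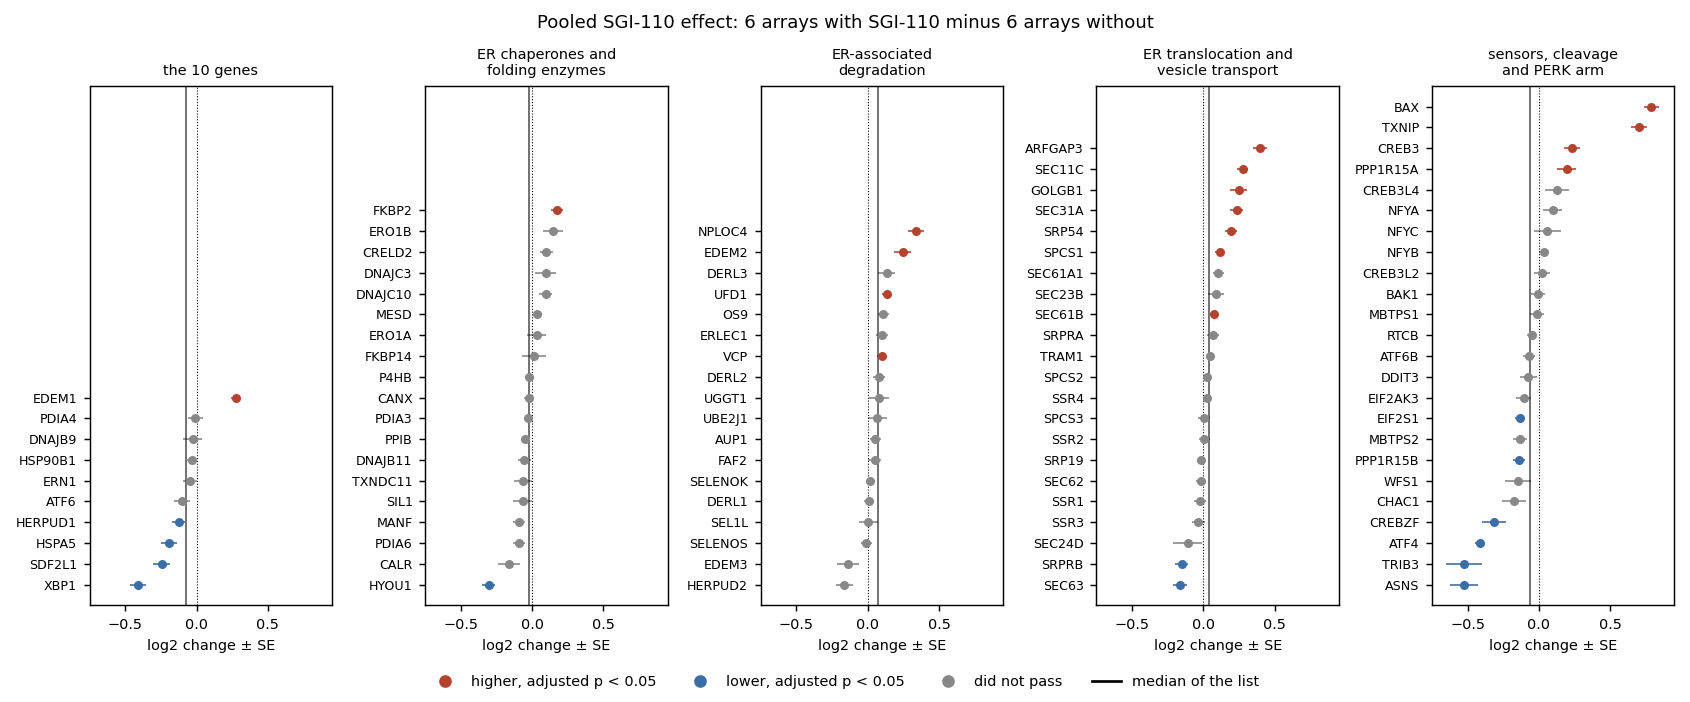
Pooled SGI-110 effect as log2 change ± SE (horizontal axis) for the 10 genes and the tested members of 4 further lists (1 gene per row), coloured by call, with each list's median as a vertical line. In the list of ER chaperones and folding enzymes outside the 10, HYOU1 is the gene that fell. ATF4 lies at −0.41 and BAX at 0.79 in the last panel.

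Over the 12 arrays, the tested genes outside the 10 most like XBP1 were CCT6A (Pearson r = 0.98), PARPBP (0.961), MRPL1 (0.959), HSPA13 (0.956) and GSPT1 (0.955). For HSPA5 they were PIK3CB (0.961), RCSD1 (0.95), MS4A3 (0.937), COQ2 (0.936) and THBS4 (0.933). The arrays share treatments and experiments, so these values are a description.

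Of 6 myeloid markers with a usable probe set 5, MPO and LYZ among them, exceeded the array median on all 12 arrays, and MEIS1 did so on 0. Of 15 markers of other cell types 5 did so on all arrays and 7 on none. The plasma cell markers were split: JCHAIN and TNFRSF17 exceeded the median on 0 arrays, SDC1 on 9 and MZB1 on 12. The summed log2 level of the myeloid markers was 53.97 to 54.42 after SGI-110, 52.67 to 53.35 after ASTX660, 53.97 to 54.82 after the combination and 52.96 to 53.53 after solvent, higher on all 6 arrays with SGI-110. That of the other markers was 68.77 to 70.33, 65.36 to 67.56, 68.79 to 69.14 and 67.84 to 68.81 in the same order of groups. Of 5 tested myeloid markers 3 rose in the pooled SGI-110 effect, against 15.1% of all genes, CSF1R by 0.74. MPO stood at −0.07 (limma adjusted p = 0.487, blocked 0.00565), so the sum does not stand for each marker. Among 7 tested markers of other cell types 1 rose, the epithelial KRT18, by 0.79 (adjusted p = 0.00111). The part of these markers in the results was not tested. The ASTX660 array of experiment 2 stood apart on the third principal component, and without it XBP1 and EDEM1 were still called in each comparison in which they are called above.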

How the data were processed

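Transcript levels were measured on 12 Affymetrix 3' arrays. The authors deposited log2 intensities; the submitters' processing notes name RMA and affy, without versions. RMA subtracts background, normalizes between arrays and summarises probes, and it compresses ratios at low intensity. Of 54675 probe sets, 42898 are listed in the platform annotation, 1801 with several symbols were set aside and 41091 with 1 symbol were used (41037 matched the RefSeq gene table by gene identifier). Probe sets above the array median on at least 3 arrays, 23660 in all, were fitted in limma 3.58.1 (R 4.3.3), using a mean for each group, a variance trend and 8 residual degrees of freedom. Benjamini-Hochberg adjustment ran over all 23660 within each of 8 comparisons. The limited number of arrays sets the precision. The fit was tested on simulated data whose arrays were independent, without an experiment effect. That run therefore does not check the fit where same-numbered arrays correlate.

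The members and lists were chosen with earlier results of these data known. Named genes were all 10 members and the 5 nearest profiles of XBP1 and of HSPA5. Each list gave up to 4 genes with the smallest adjusted p in the pooled SGI-110 effect and 2 in the pooled ASTX660 effect. DDIT3, TRIB3, PPP1R15A, SRPRB and SEC63 were added after their values were seen. The labels say that each group came from independent experiments, without saying that a number marks the same experiment in each group. Deviations from group means correlated over probe sets between same-numbered arrays by 0.127 to 0.556 in the comparisons with solvent and by 0.179 to 0.526 between the combination and SGI-110. Between the combination and ASTX660 they correlated by 0.0729, 0.0971 and 0.527 for numbers 2, 9 and 13. Between the combination and solvent the values were 0.139, 0.127 and 0.531. The block is printed beside results against solvent, a choice that these correlations do not settle. Alternatives covered scaling, the filter, 1 probe set per gene, robust moderation, array weights, the block and each array left out. Promoter sequences are from RefSeq.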

Additional observations from a re-analysis of the deposited data

How the results depend on the processing

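The 20 alternative settings gave 2968 recomputed changes of member probe sets: 2925 kept their side of the threshold, 22 lost a call, 21 gained one and 0 reversed with a call; in 131 the sign changed with a call under neither setting. The number of member genes called with SGI-110 against solvent moved to 5 with array weights and to 4 with the replicate block, against 2. It ranged from 2 to 3 with 1 array left out. The block called 23.6% of all genes there, against 13.6% without it. With the combination against solvent the member count moved to 3 after quantile normalization or with array weights, and to 4 with the block, against 2. It ranged from 1 to 2 with 1 array left out. The block called 27% of all genes there, against 16.2% without it. With the combination against ASTX660 the member count moved to 5 with the block, against 3, and to 2 with array weights. It ranged from 2 to 5 with 1 array left out. The share of all genes is not given for the other settings, so these moves are not read as results about the members. In the pooled SGI-110 effect the member count stayed at 4 or 5 in all settings. It stayed at 0 in the comparisons of ASTX660 with solvent and of the combination with SGI-110, the interaction and the pooled ASTX660 effect. The block also called the dimmer HSP90B1 probe set with SGI-110 against solvent (limma adjusted p = 0.0385). In the pooled SGI-110 effect the block moved the ER chaperone list to 3 higher and 5 lower, against 1 and 1, with PPIB (adjusted p = 0.0226) and MANF (0.0463) among the additions. It moved the degradation list to 7 higher and 1 lower, against 4 and 0. The transport list went to 8 and 2, against 7 and 2, and the sensor list to 4 and 7, against 4 and 6. Calls over all probe sets, which are not gene counts, went to 8242, against 6116. The share of all genes that the block called in the pooled effect is not given. These moves are therefore not read as results about the lists.

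Over all probe sets, calls for SGI-110 against solvent numbered 2661, against 4799 with the block, 4230 with array weights and 1553 to 3270 with 1 array left out. For the combination against solvent they numbered 3295, against 5630 with the block and 1894 to 4048 with 1 array left out, and against ASTX660 3098, 5495 and 1841 to 3018. The block called 1 probe set for ASTX660 against solvent, 8 for the combination against SGI-110 and 30 in the pooled ASTX660 effect, against 0 without it in each. The share of calls that were higher for the combination against solvent was 68.4%, against 79.1% after array median centring and 53.8% after quantile normalization. Intensity limits the dimmer probe sets: 3 of 22 member probe sets were not tested because they lay below the array median on nearly all arrays.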
